A study of Mus musculus with 3 samples.

Results

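The regions described here are 3782 isolated 1 kb bins of mouse pro-B cell chromatin that were called for trimethylated lysine 4 of histone H3 (H3K4me3) and for neither mark on arginine 2. They were chosen by the reads of all 3 libraries: 25 or more for H3K4me3, under 15 for symmetrically dimethylated arginine 2 (H3R2me2s) and under 16 for the form with both marks on the same tail (H3R2me2sK4me3, below the combined mark). A bin also had to stand alone, since called bins were joined across at most 1 uncalled bin. These lone bins made up 3782 of 18461 H3K4me3 regions, or 20.5% (95% Clopper-Pearson interval 19.9 to 21.1). Among the 5213 regions of 1 bin they were 72.5% (71.3 to 73.8), and the other 1431 were called for at least 1 arginine mark. The name "without R2 marks" therefore states only that the arginine reads stayed under a calling limit, and the mean level of both arginine marks over these bins, given below, was above background.

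The 3 libraries, 1 per antibody, were chromatin immunoprecipitations followed by sequencing. The cells of all 3 were RAG2-/- pro-B cells transformed with Abelson virus, grown in RPMI1640 with FBS, and the labels write the strain as C57BL/7. Such cells are a cultured line of early B-lineage cells that cannot assemble antigen receptor genes, because RAG2 is a subunit of the recombinase. The labels name the H3K4me3 antibody as ab8580 of Abcam and call both others custom antibodies, and they do not say whether the 3 chromatin samples came from separate cultures. There were 13898471 mapped reads for H3K4me3, 7128852 for the combined mark and 6923765 for H3R2me2s, and no input library was used here. With 1 library per antibody no difference has a replicate check and no p-value was computed, and all intervals cover counting error only. Marker genes of the cell type and the genes at or near the bins were not analysed here, since the gene tables at hand are for another genome build than the reads (mm9).

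H3K4me3 is placed by SET1 and MLL complexes and is best known from the start sites of active and poised genes. Short, weak stretches of it also occur away from promoters. Proteins with a PHD finger bind it, among them RAG2, which these cells lack. Arginine 2 lies beside lysine 4 on the histone tail. Symmetric dimethylation of arginine 2 is attributed to PRMT5 and PRMT7 and is compatible with binding of WDR5, a subunit of the MLL complexes, whereas the asymmetric form made by PRMT6 counters them.

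As a description of what the choice fixed, the H3K4me3 reads in the lone bins ran from 25 through a median of 31 to 108, with quartiles of 27 and 38. H3R2me2s reads ran from 0 through a median of 8 to 14. Combined-mark reads ran from 0 through a median of 8 to 15. For H3K4me3, 1544 bins (40.8%) had 25 to 29 reads, 1409 (37.3%) had 30 to 39 and only 298 (7.88%) had 50 or more. As CPM, the reads scaled to the library total, the medians were 2.23 for H3K4me3, 1.16 for H3R2me2s and 1.12 for the combined mark. Genome-wide, 2.45% of bins with a read were called for H3K4me3, 1.45% for the combined mark and 1.23% for H3R2me2s, and nothing about the bins is read from these shares, since the choice used the same calls.

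The arginine marks were under their limits in these bins, but their counts were mostly above the mean background, taken over all bins with no called bin within 5 kb (2.98 reads for H3K4me3, 2.35 for H3R2me2s and 1.86 for the combined mark). H3R2me2s reads exceeded that mean in 3618 bins (95.7%), and combined-mark reads did so in 3754 (99.3%), against 38.4% and 49.1% of the background bins themselves. Bins 5 to 20 kb away had more than background, with means of 3.73 H3R2me2s and 2.89 combined-mark reads, and 3424 (90.5%) and 3678 (97.3%) of the lone bins exceeded those. As the choice used these reads, the shares are a description. No H3R2me2s read fell in 18 bins and no combined-mark read in 7, and in none of the 3782 were both at 0. The mean level was 11.5 times background for H3K4me3, 3.37 times for H3R2me2s (95% Poisson interval 3.33 to 3.41) and 4.56 times for the combined mark (4.51 to 4.61). The 1431 single bins with a called arginine mark stood at 21.9, 6.46 and 12.0 times background, in the same order. Regions of 2 to 5 kb stood at 36.5, 9.16 and 24.3 times per bin.

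The limits cut through continuous distributions. There were 421 members with exactly 25 H3K4me3 reads, and 450 isolated bins lay just outside with 24. Those on the inside averaged 7.49 H3R2me2s and 7.15 combined-mark reads, and those on the outside 7.34 and 6.76. At the other limits, 180 members had 14 H3R2me2s reads, while 102 single bins failed only by having 15. Likewise 143 members had 15 combined-mark reads, and 113 single bins failed only by having 16.

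**Figure D1:**
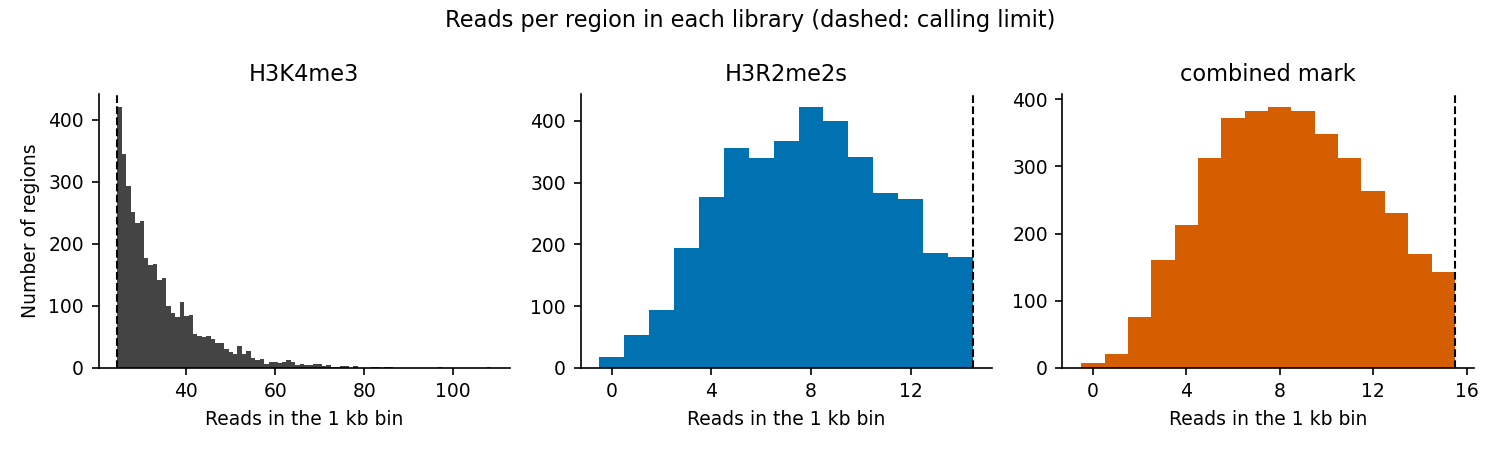
Reads in the 1 kb bin (x axis) against the number of the 3782 lone unmarked bins (y axis) for H3K4me3, H3R2me2s and the combined mark, with the calling limit dashed. The bins crowd against the H3K4me3 limit of 25, and their arginine-mark reads peak near the median of 8, well above 0.

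To measure the marks on reads that had not chosen the bins, read positions were divided into parts A and B by a fixed hash of position. Bins were chosen on part A with limits of 13 H3K4me3 reads and 8 reads of each arginine mark, which gave 3738 lone bins with neither arginine mark. In part B these held 9.84 times background for H3K4me3 (9.76 to 9.92), 3.46 times for H3R2me2s (3.41 to 3.52) and 4.55 times for the combined mark (4.48 to 4.62). In part A, which chose them, the same bins stood at 11.7, 3.06 and 3.97 times, so the reads that chose the bins were higher than the held-out reads for H3K4me3 and lower for both arginine marks. Both arginine marks were thus above background in reads that played no role in the choice. These are levels in libraries made with custom antibodies, whose specificity was not tested here.

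The surroundings of the bins were themselves above the genome-wide background. Bins 5 to 20 kb away, clear of any called bin, held 1.73 times background for H3K4me3, 1.59 for H3R2me2s and 1.56 for the combined mark in part B. Against this local level the lone bins were 5.69-fold higher for H3K4me3, 2.17-fold higher for H3R2me2s and 2.91-fold higher for the combined mark. Each of the 3 was above its local level on 20 of 20 chromosomes (the autosomes and X). No input library was used here, so a part of the H3R2me2s and combined-mark level that comes from shearing or mapping was not tested.

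The part B reads also showed how far the calls on part A held. Of the 3738 bins, 2088 (55.9%) again reached 13 H3K4me3 reads. H3R2me2s reached 8 reads in 356 of them (9.52%), and the combined mark did so in 409 (10.9%). The shares of all bins that reached these counts in part B are not given here, so neither share is read as high or low. Another 1877 single bins were called on part A for either arginine mark or both. In part B, 1620 of them (86.3%) reached the H3K4me3 limit again, 594 (31.6%) the H3R2me2s limit and 938 the combined-mark limit. In the lone unmarked bins the H3K4me3 call itself was thus repeated less often than in the marked ones. The unmarked bins also had fewer H3K4me3 reads in part A, with 17.4 per bin against 30.4. Repeat shares at equal H3K4me3 are not given here, so the lower share is not read as a trait of the unmarked bins. The variance of part B counts over the lone bins was 1.53 times their mean for H3R2me2s and 1.62 times theirs for the combined mark, where Poisson counting alone gives 1, and 3.57 times for H3K4me3.

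Within the lone bins both arginine marks were higher where H3K4me3 was higher. Grouped by part A H3K4me3 reads of 13 to 14, 15 to 17, 18 to 22 and 23 or more, the part B level of H3K4me3 was 7.25, 8.97, 11.3 and 15.7 times background. H3R2me2s went with it from 3.08 (3.00 to 3.17) through 3.40 and 3.75 to 4.08 (3.92 to 4.24). The combined mark went from 3.69 (3.59 to 3.80) through 4.19 and 4.95 to 6.80 (6.57 to 7.03). The combined mark therefore spanned a wider range over these classes than H3R2me2s did.

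Single bins with a called arginine mark stood higher at the same part A H3K4me3 class, as goes with a choice by the arginine reads of part A. In the lowest class they held 4.35 times background for H3R2me2s (4.10 to 4.61) and 4.98 for the combined mark (4.68 to 5.29). In the highest class the values were 6.43 and 13.7. H3R2me2s was above the lone unmarked bins on 19, 18, 16 and 20 of 20 chromosomes in the 4 classes, and the combined mark on 19, 19, 18 and 20. Their H3K4me3 was also higher in part B, at 8.71 against 7.25 in the lowest class and 26.1 against 15.7 in the highest, so the classes did not make H3K4me3 equal and its part in the difference was not tested.

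**Figure D2:**
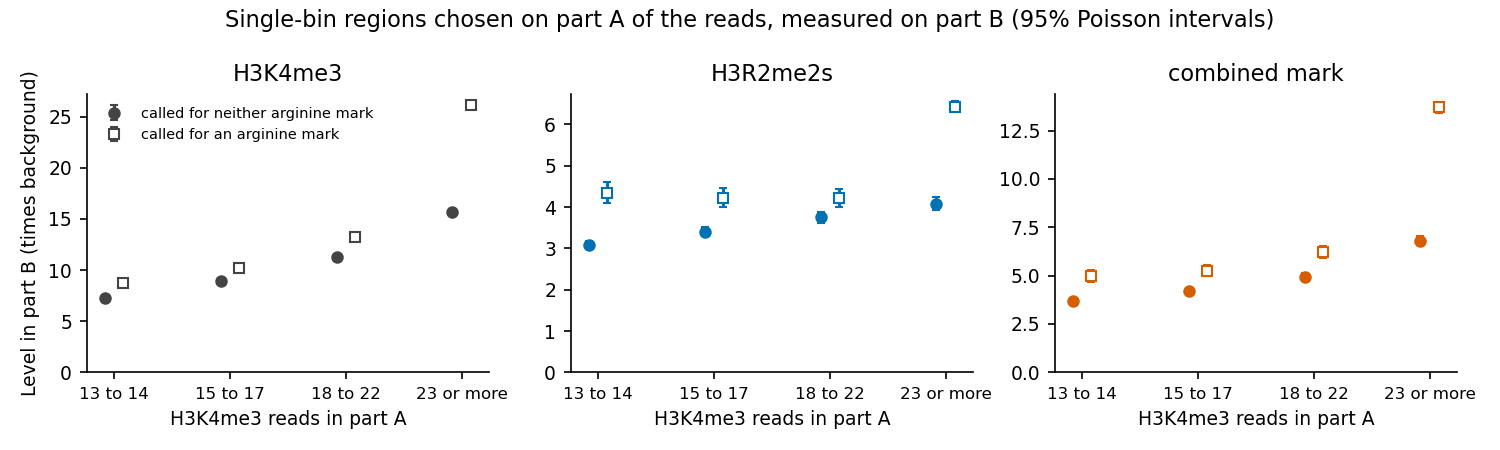
Level in part B as a multiple of background (y axis) by the H3K4me3 reads in part A (x axis), for single-bin regions with and without an arginine mark called on part A; bars are 95% Poisson intervals. In bins called for neither mark H3R2me2s went from 3.08 to 4.08 times background over the classes and the combined mark from 3.69 to 6.80.

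Set against the H3K4me3 signal, the combined mark was higher in the marked bins, whereas H3R2me2s was close in both classes when the local level was subtracted. After subtraction of the local level, H3R2me2s in part B was 0.230 of the H3K4me3 signal in the lone unmarked bins (0.223 to 0.237) and 0.218 in the marked ones (0.212 to 0.224). These intervals overlapped, and they cover counting error only. The combined mark was 0.369 of it in the unmarked bins (0.359 to 0.378) and 0.483 in the marked ones (0.474 to 0.493). By chromosome the unmarked bins had the higher H3R2me2s fraction on 15 of 20, and the higher combined-mark fraction on 0 of 20. With the genome-wide background subtracted instead, the H3R2me2s fraction was 0.278 in the unmarked bins and 0.241 in the marked ones, so its closeness depended on the background used. The combined-mark fraction was then 0.402 and 0.494. The 2 classes were set by the arginine reads of the same bins in part A. A higher combined-mark fraction in the marked bins goes with that choice and is a description. These fractions compare multiples of each library's own background and are not numbers of nucleosomes.

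Around the bins the arginine marks peaked at the same place as H3K4me3. Within 200 bp of the median H3K4me3 read, H3K4me3 stood at 17.1 times background, H3R2me2s at 4.15 and the combined mark at 6.31. From 200 to 500 bp they stood at 8.47, 3.05 and 3.70, and from 2 to 3 kb at 2.80, 1.96 and 2.01. Read positions inside the bin did not enter the choice for either arginine mark, though the sum over the bin did. In single bins with a called arginine mark the centre was higher, at 35.0, 9.22 and 19.4 times, while the flanks at 2 to 3 kb were close, at 2.75, 1.96 and 2.07.

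**Figure D3:**
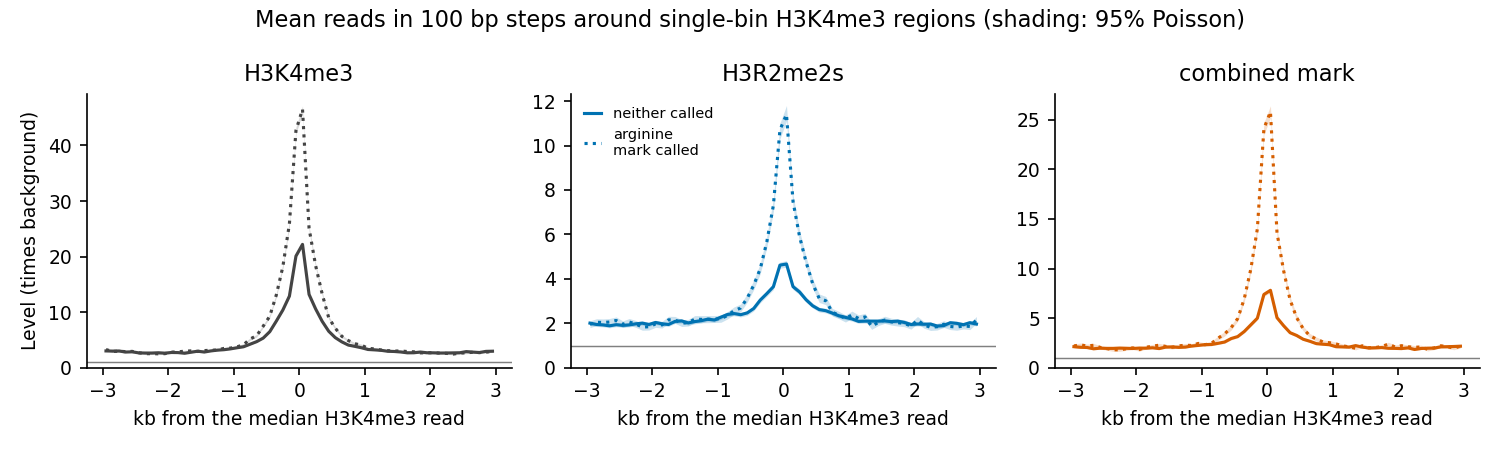
Mean level as a multiple of background (y axis, separate scale per panel) in steps of 100 bp by distance from the median H3K4me3 read (x axis, kb), for single-bin regions with neither arginine mark called (solid) and with one called (dotted); shading is the 95% Poisson interval and the grey line is background. Both arginine marks peak at the centre of the unmarked bins and settle near 2 times background in the flanks.

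The spread of the H3K4me3 reads inside the bins is given as a description, with no reference value for evenly spread reads. The shortest window with 50% of a bin's H3K4me3 reads had a median width of 238 bp (234 to 242), close to the 226 bp (219 to 231) of marked single bins. In 85.7% of the bins the median read fell in the middle 500 bp, and in 34 (0.899%) it fell within 100 bp of an edge. The median of evenly spread reads also tends to the middle of a bin, so these shares do not measure compactness. Distinct read starts on opposite strands, counted over the bins and those on either side, were most often 135 bp apart for H3K4me3 and the combined mark and 145 bp apart for H3R2me2s, close to the length of DNA on a nucleosome. At those spacings pairs of reads were 2.57, 2.62 and 2.29 times as frequent as at long distances, and at 40 bp, near the read length of 39, they were 1.80, 1.56 and 1.40 times as frequent. Repeated reads at the same position and strand were 3.29%, 1.67% and 4.52% of the reads in the bins for H3K4me3, the combined mark and H3R2me2s.

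Whether a bin stood alone depended partly on where the bin borders lay. With the grid moved by 500 bp, 2477 members (65.5%) overlapped 1 called bin, 415 (11.0%) overlapped a pair and 890 (23.5%) overlapped none. A member of the moved grid overlapped 2141 of them (56.6%). In 290 (7.67%) an overlapping H3K4me3 bin was called for an arginine mark. The larger of the 2 adjacent bins had a median of 15 H3K4me3 reads, and in 2045 members (54.1%) it had 15 or more. All adjacent bins averaged 11.7 H3K4me3 reads and bins 5 to 20 kb away 5.05, so the adjacent bins stood above the surroundings on average.

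The shares of bins next to a lone bin that were called for an arginine mark are set beside the shares of all bins as a description. Of 7564 bins at 1 kb from a member, 87 were called for H3R2me2s, or 1.15% (0.922 to 1.42), against 1.23% of all bins. The combined mark was called in 9, or 0.119% (0.0544 to 0.226), against 1.45% of all bins. By the choice of lone bins, none of these adjacent bins can be called for H3K4me3, and the combined mark by its name includes that mark. The shares of all bins include bins called for H3K4me3. Shares among the bins not called for it are not given here, so neither arginine mark is read as rarer or as frequent as elsewhere. In marked single bins the shares at 1 kb were 1.26% and 0.559%. The mean level at 1 kb was still 2.42 times background for the combined mark and 2.32 for H3R2me2s, and at 2 kb it was 1.98 and 2.00. By 5 kb, where other regions come in, 3.52% of bins were called for H3R2me2s and 3.64% for the combined mark.

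The lone bins lay among other H3K4me3 regions. The median distance to the nearest one was 15 kb (14 to 16), with quartiles of 5 and 40 kb and a range of 2 to 4342 kb. Another region lay under 5 kb away for 821 of them (21.7%, 20.4 to 23.1), under 10 kb for 1444 (38.2%) and at 100 kb or more for 362 (9.57%). The marked single bins had a median of 16 kb (14 to 17), with 36.4% under 10 kb and 8.46% at 100 kb or more, so the intervals of the medians overlapped. The lone unmarked bins had the higher share under 10 kb on 12 of 20 chromosomes. Regions of 2 to 5 kb had the same median within 1 kb, at 16 kb (16 to 17), but a lower share under 10 kb, at 34.5%, and the lone bins were above them on 17 of 20 chromosomes. They were also below the lone bins at 100 kb or more, with 8.02% against 9.57%, on 15 of 20. Distances were thus more spread in the lone bins than in those regions.

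**Figure D4:**
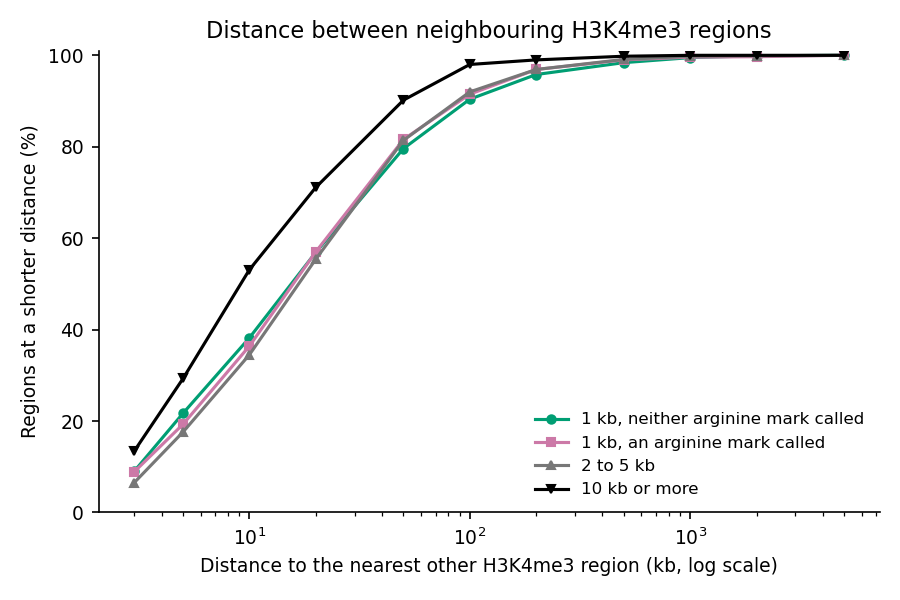
Percentage of regions with another H3K4me3 region at a shorter distance (y axis) against that distance in kb (x axis, log scale), by class of region. The curves for single bins with and without a called arginine mark lie close together, with medians of 16 and 15 kb, and regions of 10 kb or more lie to the left with a median of 9 kb.

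The nearest region was most often one of 2 to 5 kb (57.6%), and for 867 (22.9%, 21.6 to 24.3) it was another lone unmarked bin, a class that made up 20.5% of regions. It was called for H3R2me2s in 2232 cases (59.0%), against 63.2% of all regions, and for the combined mark in 63.8%, against 68.4%. The marked single bins were close to this. Their nearest region was a lone unmarked bin in 21.7%, called for H3R2me2s in 59.3% and for the combined mark in 66.1%. Regions lay on both sides within 10 kb for 276 lone bins (7.30%), against 5.35% of the regions of 2 to 5 kb.

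By point values, the level above the surroundings changed with distance in another order for H3R2me2s than for H3K4me3 and the combined mark. In part B, H3R2me2s in bins under 5 kb, 5 to 19 kb, 20 to 99 kb and 100 kb or more from the nearest region was 3.59, 3.69, 3.29 and 2.80 times background. The local level went from 1.80 through 1.74 and 1.49 to 1.13. The difference between bin and local level was 1.79 (1.67 to 1.90), 1.94 (1.85 to 2.04), 1.80 (1.71 to 1.90) and 1.67 (1.50 to 1.84). The counting intervals of the nearest and farthest classes overlapped, and that of 5 to 19 kb lay just above that of 100 kb or more. Over all lone bins the variance of the H3R2me2s counts in part B was 1.53 times their mean. Counting intervals are therefore too narrow for the spread between bins, and the order of the H3R2me2s classes is not settled. For the combined mark the difference over the same classes was 2.53 (2.38 to 2.67), 2.92, 3.20 and 3.37 (3.13 to 3.62). For H3K4me3 it was 6.84 (6.67 to 7.00), 7.98, 8.78 and 8.97 (8.68 to 9.25). The limits were fixed numbers of reads whatever the local level, so a bin in higher surroundings could pass with less above them. The H3K4me3 bin level in part B was 8.93, 9.94, 10.3 and 10.1 times background, and its local level went from 2.09 to 1.18. As a description, bins at 100 kb or more had more H3K4me3 and combined mark above their surroundings than bins under 5 kb from another region. By point values, H3R2me2s was highest at 5 to 19 kb and lowest at 100 kb or more.

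**Figure D5:**
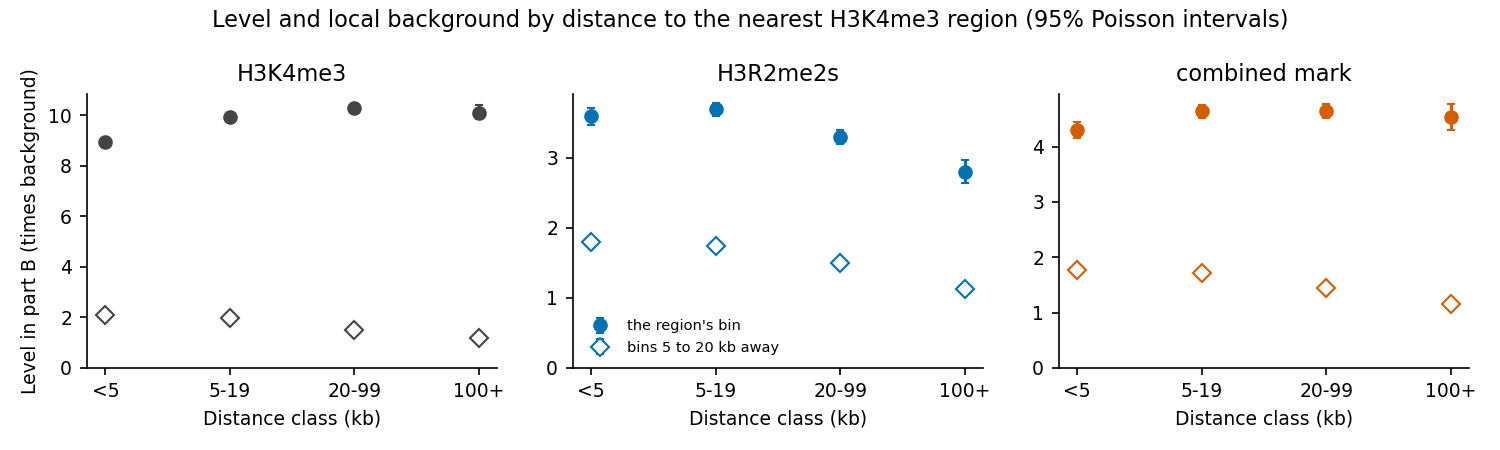
Level in part B and local background in part B, both as multiples of genome-wide background (y axis), by distance to the nearest other H3K4me3 region (x axis, classes in kb), for bins chosen on part A with neither arginine mark; bars are 95% Poisson intervals. The local level falls with distance for all 3 libraries. The H3R2me2s bin level is 3.59, 3.69, 3.29 and 2.80 over the classes, lowest at 100 kb or more. For H3K4me3 and the combined mark the bin level is lowest under 5 kb.

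By chromosome, the lone unmarked bins made up from 16.6% of the H3K4me3 regions on chromosome 8 to 23.9% on chromosome 1 and 217 of 904 on chromosome 6, leaving aside chromosome Y with 1 of 13. On chromosome X they were 93 of 495 regions, or 18.8% (15.4 to 22.5). Their density ran from 0.558 per Mb on chromosome X to 2.22 per Mb on chromosome 11. Background on chromosome X was 0.549 of the genome-wide value for H3K4me3, 0.522 for H3R2me2s and 0.547 for the combined mark. The 79 bins chosen there on part A had 2.54 times the genome-wide background for H3R2me2s in part B, against 3.48 on the autosomes, while the combined mark was at 4.59 against 4.55 and H3K4me3 at 11.0 against 9.81. Against each group's own background the order for H3R2me2s turned, with 4.87 (4.26 to 5.53) on chromosome X and 3.39 (3.34 to 3.44) on the autosomes. The combined mark was then at 8.39 against 4.44 and H3K4me3 at 20.1 against 9.57. The limits were the same numbers of reads on every chromosome. A bin over a lower background thus had to reach a higher multiple of it to be called for H3K4me3. The values on chromosome X are a description, and a difference from the autosomes was not tested.

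The members with most H3K4me3 were named by rule, with their reads given as a description. On chromosome 4, the bin at 19903001 to 19904000 had 108 H3K4me3, 11 H3R2me2s and 13 combined-mark reads and lay 7 kb from the next region. The bin on chromosome 14 at 15358001 to 15359000 had 97, 14 and 15 reads and lay 11 kb from a lone bin. Chromosome 5 held 2 more, at 17336001 to 17337000 with 86, 13 and 12 reads and at 46317001 to 46318000 with 86, 8 and 15. The bin on chromosome 17 at 66079001 to 66080000 had 85, 11 and 14 reads. Combined-mark reads in all 5 were above the median of 8, whereas H3R2me2s in the second bin on chromosome 5 was at its median of 8. In all 5 both overlapping bins of the grid moved by 500 bp were called for H3K4me3.

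The bins with the fewest arginine reads per H3K4me3 read were ranked by the upper bound of the ratio of both arginine marks together to H3K4me3, on the CPM scale. On chromosome 1, the bin at 179394001 to 179395000 had 35 H3K4me3, 3 H3R2me2s and 0 combined-mark reads, a ratio of 0.0848 with an upper bound of 0.269. The 0 allows up to 3 reads. On chromosome X, the bin at 133654001 to 133655000 had 46, 2 and 4 reads, with an upper bound of 0.303. The bin on chromosome 12 at 77278001 to 77279000 had 40 H3K4me3, 0 H3R2me2s and 5 combined-mark reads, with a bound of 0.313. Their surroundings differed, with a local level of 11.0 H3K4me3 reads per bin around the first, 2.25 around the second and 1.89 around the third. The other two were on chromosome 7 at 147235001 to 147236000, with 48, 3 and 4 reads, and on chromosome 14 at 16856001 to 16857000, with 42, 3 and 3. As the lowest upper bounds among 3782 bins, they are extremes by choice.

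The most remote member was on chromosome 14 at 110641001 to 110642000, 4342 kb from any other H3K4me3 region. It had 37 H3K4me3 reads at 33 distinct positions, 2 H3R2me2s and 6 combined-mark reads, and 50% of its H3K4me3 reads lay within 88 bp. On chromosome 5, the bin at 81044001 to 81045000 stood 2112 kb from the next and had 35, 5 and 3 reads. A pair on the same chromosome, at 58105001 to 58106000 with 33, 7 and 11 reads and at 60124001 to 60125000 with 27, 5 and 5, were each other's nearest region across 2018 kb. On chromosome 1, the bin at 103799001 to 103800000 was 1819 kb from the next and had 49, 4 and 13 reads. Local levels around all 5 were 2.50 to 3.62 H3K4me3 reads per bin, close to the genome-wide background of 2.98.

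The windows with most lone unmarked bins were named by rule as well, with no test of whether the bins cluster. Of 2003 windows of 1 Mb with an H3K4me3 region, 1482 held at least 1, with a median of 2. The window on chromosome 15 from 63000001 to 64000000 held 11 among 19 regions, and that on chromosome 1 from 179000001 to 180000000 held 11 among 24. The latter includes the bin with the lowest arginine ratio named above, and its neighbour 2 kb away. On chromosome 16, the window from 30000001 to 31000000 held 10 among 24 and was taken over 3 others with 10 by its H3K4me3 reads.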

How the data were processed

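Every line of the deposited files is a mapped read of 39 bases, and read counts made from them are raw counts, unscaled by the authors. The build, per the submitters' processing notes, was mm9. Of the aligner and of any filter on repeated reads, the sources used here say nothing: both are not given. Reads were shifted by 75 bp toward their 3-prime end before counting in bins of 1 kb. A bin was called at 4 times the mean over 2285014 bins with a read and at a Poisson upper tail under 1e-06, which gave the limits of 15, 16 and 25 reads.

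Part A and part B were set by a hash of chromosome, position and strand, so repeated reads stayed together. Background and local bins (5 to 20 kb away, over 2 kb from any called bin) were set on all reads. Shares have Clopper-Pearson intervals, levels exact Poisson intervals and medians order-statistic intervals, all at 95%, and the net fractions have intervals from propagated counting error. PCR reads are not independent molecules. Chromosome counts are descriptions, since chromosomes share libraries. The bins and comparisons were chosen with earlier results of these data known.

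Named bins were the 5 with most H3K4me3 reads, the 5 with the lowest upper bound of the arginine ratio, the 5 farthest from another region and the 3 windows of 1 Mb with most members. Ties went to more H3K4me3 reads. Scripts used Python 3.11.15, NumPy 2.4.6, pandas 2.3.3, SciPy 1.17.1 and Matplotlib 3.10.9, and the counting and the division of reads were tested on simulated data. Alternatives covered the read shift, repeated reads, depth, limits, joining, strands, the sex chromosomes and the local background.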

Additional observations from a re-analysis of the deposited data

How the results depend on the processing

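Of 66 values recomputed under 13 alternative settings, 38 were called unmoved (within the counting interval of the reported value, or, for the number of bins, within 1.5 times) and 28 moved, and none has a test. The number of lone unmarked bins moved by over 1.5 times with the limits: it was 1516 at an H3K4me3 limit of 40 and 1643 at arginine limits of 10. It was 3181 at equal depth, 4603 with adjacent bins only joined and 3180 with joining across 3 uncalled bins. Under the first, they were 36.6% of single bins, the median distance was 20 kb, 30.9% lay under 10 kb, and the held-out levels were 4.07 times background for H3R2me2s and 6.11 for the combined mark. Under the second, these values were 31.5%, 18 kb, 34.9%, 3.31 and 4.17. Joining adjacent bins only gave a median distance of 10 kb, 49.2% under 10 kb and a combined-mark level of 4.46, and joining across 3 uncalled bins gave 20 kb and 26.5%. Equal depth gave a share of 62.9% and an H3R2me2s level of 3.40. Moving reads by 150 bp gave a share of 73.9%. The held-out levels of H3R2me2s and the combined mark were 3.52 and 4.65 with 1 read per position, 3.39 and 4.44 without chromosomes X and Y, and 2.17 and 2.91 against the local background. Choosing on part B and measuring on part A, added after seeing the data, gave 3.39 and 4.47. The cause of these shifts was not tested. No paired analysis was possible because there was 1 library for each antibody. Depth limits single bins, where 8 reads of an arginine mark are typical, more than the means over all bins.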
